A study of Bos taurus with 18 samples.

Results

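The levels of 10 genes of acute inflammatory signalling were followed in rumen papillae: the interleukin-1 (IL1) family cytokines IL1A, IL1B and IL18, the receptor antagonist IL1RN, the neutrophil chemoattractants CXCL8 and CXCL2, the granulocyte growth factor CSF3, the cytokines IL6 and TNF, and the inhibitor of NF-kB, NFKBIA. They were chosen by name, and each name matched 1 gene of the raw count table, giving 10 of 27270 genes. All 10 passed the filter on low counts, which left 22202 genes to test. Papillae are the leaf-like projections of the rumen wall, lined by a stratified squamous epithelium that absorbs the fermentation acids. Total RNA of papillae was sequenced in 18 libraries, and reads were counted per Ensembl gene.

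All cows were non-lactating Holsteins fitted with a rumen cannula. The forage_control group (5 libraries) holds control cows biopsied while they ate 100% forage, and the grain_control group (5 libraries) holds control cows biopsied once grain was high and concentrate made up 65% of the feed. The forage_PHY and grain_PHY groups (4 libraries each) are cows of the PHY treatment on the same diets. The labels do not expand that name, and do not say whether PHY was already being fed at the forage biopsy. The same 9 cows were sampled on both diets, 5 control and 4 PHY, but no label ties a library to a cow, so diet was tested as if the libraries were independent. Every cow received forage before grain, so diet and time cannot be told apart, and the age of the animals was not given. The number after a group name only tells its libraries apart.

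IL1A and IL1B signal through the IL1 receptor and the adaptor MYD88 to NF-kB, and IL1RN occupies the same receptor without signalling. IL1B and IL18 are made as precursors that an inflammasome cuts into active form, whereas stratified epithelia hold IL1A ready in the cell and make much IL1RN. NF-kB drives transcription of CXCL8, CXCL2, CSF3, IL6 and TNF in many cells, and also of NFKBIA, which returns NF-kB to the cytoplasm.

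Library totals ran from 3953060 to 34471682 reads, and the 3 lowest were grain_PHY 1, grain_control 1 and grain_control 4. Reads of 144 olfactory receptor genes, which papillae are not known to use, were counted as a measure of background and made up 16.3 to 65.0 CPM (reads scaled to a fixed library size, here the total) on forage and 32.9 to 345.3 CPM on grain. The papilla label was set beside the 13 markers of stratified epithelium found in the table, such as KRT5 and KRT14. Reads over the 18 libraries ran from 473 for KRT4 and 1175 for KRT10 to 2077405 for DSP. Such markers cannot tell rumen papillae from other stratified epithelia. Their sum was high in every library, at 14102 to 35241 CPM in forage_control and 24027 to 26623 CPM in forage_PHY. On grain the sum was 8472 to 26122 CPM in grain_control and 6834 to 22849 CPM in grain_PHY. Depth, olfactory receptor reads and epithelial markers thus moved with diet, and their part in the diet results below was not tested unless a value is given. In whole tissue, fewer cells of a type and less RNA per cell cannot be told apart.

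On grain, 6 of the 10 genes rose and 1 fell over both arms. IL1A, IL1B, CXCL8, CXCL2, CSF3 and TNF rose, with fold changes of 2.03 to 5.84, and NFKBIA fell. IL1RN, IL18 and IL6 did not pass the test. A call is an adjusted p under 0.05 in the quasi-likelihood test of edgeR with Benjamini-Hochberg adjustment over all 22202 genes. Of all tested genes, 18.1% rose and 13.8% fell by the same rule, and 31.9% were called in either direction. At an unadjusted p under 0.05 stood 8 of the 10 genes and 50.3% of all. No gene of the 10 was without overlap between the diets, as 0.054% of tested genes were upward and 0.153% downward. The median log2 fold change of the 10 genes was 1.20, beside 0.20 for all tested genes, whose middle range (25% to 75%) was −0.35 to 1.29.

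**Figure D1:**
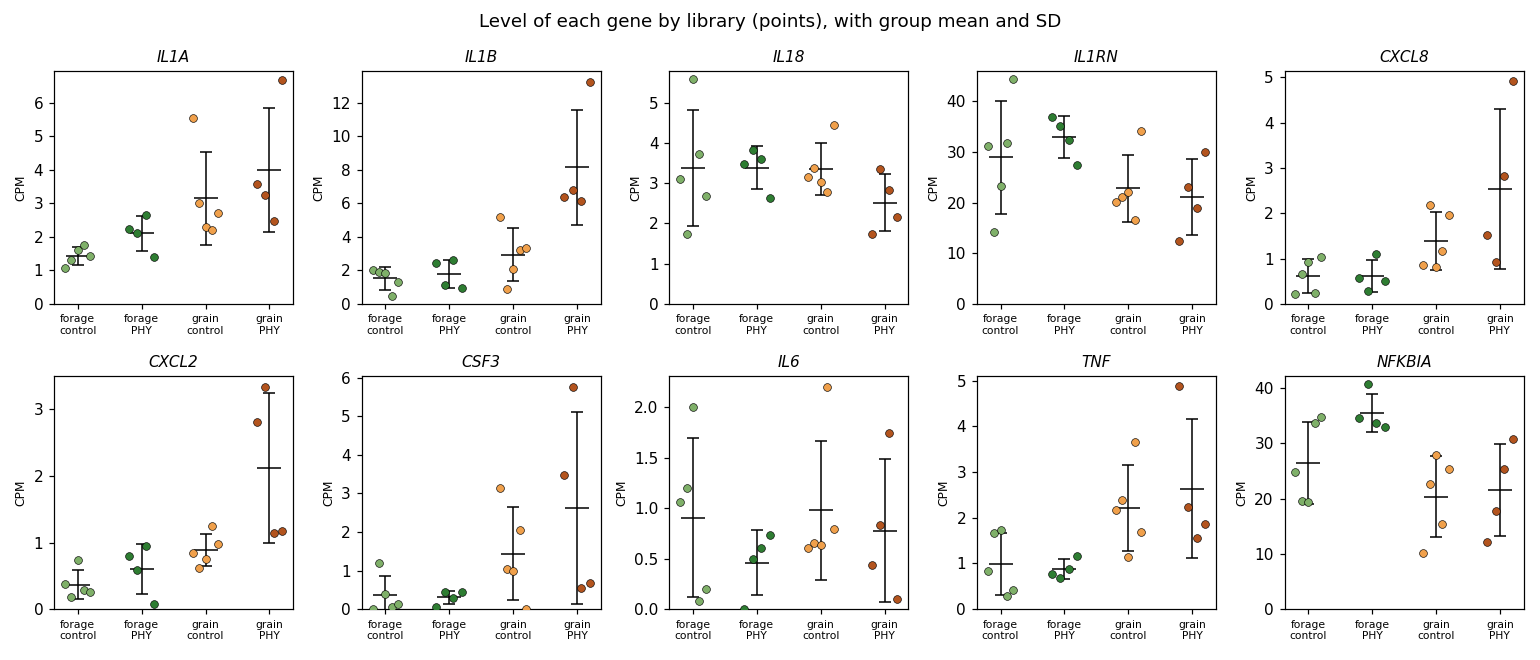
Level of each of the 10 genes in every library (CPM, with library sizes scaled by TMM; 1 panel per gene, each with its own axis from 0), by diet and arm; points are libraries and the bar is the group mean with its SD, cut at 0. The 4 points of IL1B in grain_PHY lie between 6.13 and 13.3 CPM, above all other libraries, whereas the NFKBIA points lie mostly lower on grain.

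Among the IL1 ligands, IL1B, which is secreted mainly by activated myeloid cells, was highest in the grain_PHY group. Its CPM in forage_control 1 to 5 was 2.04, 1.91, 1.87, 0.450 and 1.29, and in forage_PHY 1 to 4 it was 2.41, 1.12, 2.60 and 0.951. On grain it was 5.20, 0.905, 2.06, 3.23 and 3.32 in grain_control and 6.39, 6.77, 6.13 and 13.3 in grain_PHY. Every grain_PHY library lay above every other library of the study, and 7 of 9 grain libraries lay above the highest forage library, while grain_control 2 was among the low ones. These levels rest on 11 to 135 reads per library. The mean went from 1.63 ± 0.714 CPM (SD, n = 9) on forage to 5.25 ± 3.63 CPM (SD, n = 9) on grain. IL1B rose by 1.57 ± 0.35 (SE) on the log2 scale (edgeR, Benjamini-Hochberg adjusted p 0.0202).

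IL1A, the alarm cytokine stored in epithelial cells, was 1.06, 1.31, 1.60, 1.76 and 1.42 CPM in forage_control and 2.25, 2.12, 2.66 and 1.39 CPM in forage_PHY. It was 5.56, 3.003, 2.29, 2.199 and 2.71 CPM in grain_control and 3.57, 3.25, 2.46 and 6.68 CPM in grain_PHY. In control cows every grain library exceeded every forage library, whereas in PHY cows grain_PHY 3 fell below forage_PHY 3. IL1A rose by 1.02 ± 0.30 (SE) over both arms (edgeR adjusted p 0.0246). IL18, which induces interferon-gamma in lymphocytes, ranged from 1.73 to 5.60 CPM on forage and from 1.73 to 4.44 CPM on grain. Of the 9 grain libraries 8 lay below the forage median of IL18 and 1 above it. The diets overlapped over nearly the whole range for IL18, with a log2 difference of −0.21 ± 0.27 (SE; edgeR adjusted p 0.507; 95% interval −0.76 to 0.33).

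IL1RN, the antagonist of the IL1 receptor, was 31.1, 14.2, 23.3, 31.8 and 44.4 CPM in forage_control and 36.9, 35.2, 32.3 and 27.4 CPM in forage_PHY. On grain it was 20.1, 21.0, 22.1, 16.6 and 34.1 CPM in grain_control and 12.3, 23.1, 18.9 and 30.1 CPM in grain_PHY. The diets overlapped: forage_control 2 was below nearly all grain libraries, and grain_control 5 was above most forage ones. Of the 9 grain libraries 8 lay below the forage median of IL1RN and 1 above it. The log2 difference of IL1RN, −0.49 ± 0.20 (SE), missed the threshold (edgeR adjusted p 0.0556). It passed without forage_control 2 (adjusted p 0.0202 by edgeR), forage_control 3 (0.0422), grain_control 5 (0.0216) or grain_PHY 4 (0.0277).

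Of the chemoattractants, CXCL8 (interleukin-8), which draws neutrophils through CXCR1 and CXCR2, was 0.226, 0.657, 0.933, 0.245 and 1.03 CPM in forage_control and 0.570, 0.280, 1.11 and 0.512 CPM in forage_PHY. It was 0.846, 2.18, 0.802, 1.17 and 1.96 CPM in grain_control and 1.52, 0.928, 2.82 and 4.91 CPM in grain_PHY. All 9 grain libraries lay above the forage median, and 6 lay above the highest forage library. CXCL8 rose by 1.60 ± 0.48 (SE) on the log2 scale (edgeR adjusted p 0.0245), from 3 to 32 reads per forage library to 7 to 53 per grain library.

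CXCL2, a CXCR2 ligand, was 0.377, 0.179, 0.733, 0.286 and 0.258 CPM in forage_control and 0.792, 0.592, 0.941 and 0.0731 CPM in forage_PHY. Its level was 0.846, 0.617, 0.745, 1.25 and 0.981 CPM in grain_control and 2.82, 3.34, 1.14 and 1.18 CPM in grain_PHY. In PHY cows the diets did not overlap for CXCL2, while in control cows grain_control 2 was below forage_control 3. CXCL2 rose by 1.53 ± 0.50 (SE; edgeR adjusted p 0.0303), and grain_PHY 1 and 2 were the highest libraries.

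CSF3, or G-CSF, which promotes neutrophil production and release, was 0, 1.20, 0.400, 0.0409 and 0.129 CPM in forage_control and 0.0634, 0.436, 0.277 and 0.439 CPM in forage_PHY. On grain, CSF3 was 3.14, 1.03, 0.974, 2.05 and 0 CPM in grain_control and 3.47, 5.75, 0.541 and 0.688 CPM in grain_PHY. No reads were counted in forage_control 1 and grain_control 5, where 3 reads would be 0.226 and 0.140 CPM. These are limits of counting error only, since PCR reads are not independent molecules. CSF3 rose by 2.55 ± 0.77 (SE; edgeR adjusted p 0.0253), a fitted value that rests on 0 to 62 reads per library.

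TNF, an early cytokine of macrophages and T cells, was 0.830, 1.67, 1.73, 0.286 and 0.420 CPM in forage_control and 0.760, 0.686, 0.886 and 1.17 CPM in forage_PHY. It was 2.18, 2.39, 1.15, 3.67 and 1.68 CPM in grain_control and 4.87, 2.23, 1.56 and 1.87 CPM in grain_PHY. TNF rose by 1.38 ± 0.43 (SE; edgeR adjusted p 0.0263), with 6 of 9 grain libraries above the highest forage library. IL6, which drives the acute-phase response, did not share that pattern: it ranged from 0 to 2 CPM on forage and from 0.0982 to 2.199 CPM on grain. IL6 had no reads in forage_PHY 1 and 1 read in grain_PHY 4, and its difference was 0.47 ± 0.68 (SE; edgeR adjusted p 0.573), with a 95% interval of −0.94 to 1.87.

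NFKBIA was 24.9, 19.5, 19.5, 33.6 and 34.8 CPM in forage_control and 34.6, 40.7, 33.7 and 33.1 CPM in forage_PHY. On grain NFKBIA was 10.2, 22.7, 27.9, 15.5 and 25.3 CPM in grain_control and 12.1, 17.7, 25.4 and 30.9 CPM in grain_PHY. All 9 grain libraries were below the forage median, 4 of them below the lowest forage library. NFKBIA fell by 0.55 on the log2 scale (SE 0.20; edgeR adjusted p 0.0404), the opposite direction to the 6 genes that rose.

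**Figure D2:**
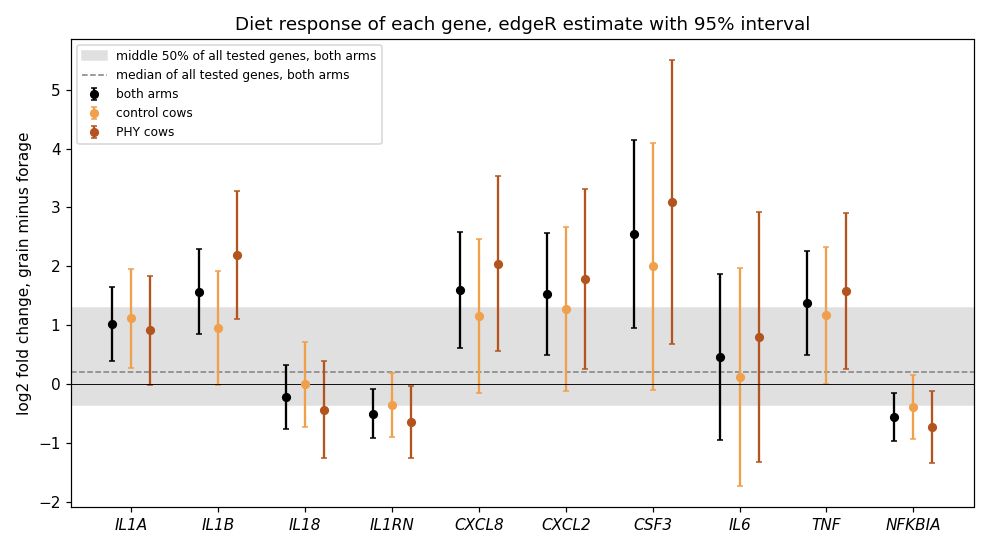
Log2 fold change from forage to grain for each of the 10 genes, as edgeR estimated it in control cows, in PHY cows and as the mean of both arms; lines are 95% intervals and 0 is no difference. The interval of IL1B in PHY cows runs from 1.11 to 3.27, those of IL18 and IL6 cross 0 in all 3 estimates, and those of IL1RN and NFKBIA lie mostly below 0.

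The number of calls among the 10 genes moved with single libraries: it was 0 without grain_PHY 1, 1 without forage_PHY 1, 3 without forage_PHY 2, and 4 without grain_PHY 2, grain_control 1 or grain_control 4, each on its own. Of all tested genes, 0.00445%, 9.27%, 12.3%, 22.6%, 13.4% and 16.4% were called in those fits, in the same order. IL1B was called in 17 of these 18 fits, IL1A and CXCL8 in 15, CSF3 and TNF in 14, CXCL2 in 13 and NFKBIA in 7. No gene passed without grain_PHY 1, where the edgeR adjusted p was 0.0616 for IL1B and 0.0629 for IL1A and CXCL8. With the olfactory receptor level as a covariate edgeR called 0 of the 10 genes and 0 of all genes (1032 at an unadjusted p under 0.05), and without the 3 libraries of fewest reads likewise 0 and 0 (4136 unadjusted). IL1B was then 1.30 and 1.42 higher on the log2 scale, respectively, while with the covariate NFKBIA turned to 0.14 and IL1RN to 0.15.

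How often genes were called depended on their level, and the 10 genes sat at 2 ends of it. Among tested genes with a mean of 2 to 4 CPM, the range of IL1A, IL1B and IL18, 39.8% rose and 0.576% fell. At 1 to 2 CPM, the range of CXCL8, CSF3 and TNF, 38% rose and 0.158% fell. Below 1 CPM, where CXCL2 and IL6 lie, 20.2% rose and 0.0398% fell. At 16 to 32 CPM, the range of IL1RN and NFKBIA, 0.991% rose and 36.1% fell. The 6 genes that rose and the 1 that fell thus went the way that most called genes of their own level went. In the ranking of all log2 fold changes CSF3 stood at percentile 98.4, CXCL8 at 84.7, IL1B at 83.7, CXCL2 at 82.6, TNF at 77.5, IL1A at 67.4 and NFKBIA at 10.2.

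**Figure D3:**
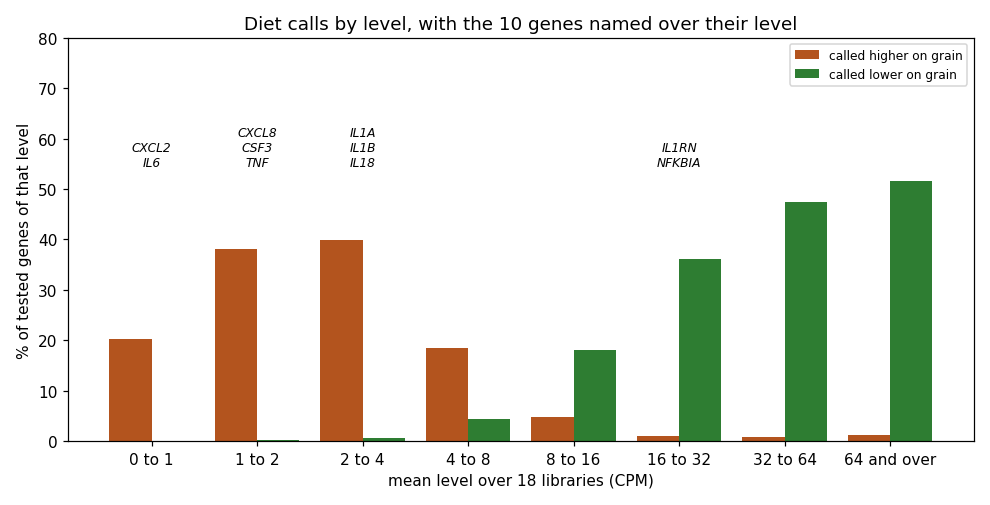
Share of tested genes called higher (orange bars) or lower (green bars) on grain, over both arms, in bands of mean level (CPM over 18 libraries), with the 10 genes named above the band they fall in. Calls were mostly higher below 8 CPM and mostly lower above it.

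The balance of agonist and antagonist was measured without any library size, as the ratio of reads of 2 genes in the same library. A ratio still carries the dependence on level: IL1A and IL1B lie at 2 to 4 CPM, IL1RN and NFKBIA at 16 to 32 CPM. All tested genes of those bands had a median log2 fold change on grain of 0.85 and −0.37. The ratios were not set against other gene pairs of those levels. In forage_control 1 to 5 there were 15.0, 7.34, 12.3, 67.7 and 33.99 IL1RN reads for each IL1B read, and in forage_PHY 15.2, 30.9, 12.3 and 27.7. On grain there were 3.83, 22.7, 10.6, 5.11 and 10.2 in grain_control and 1.92, 3.39, 3.08 and 2.26 in grain_PHY. The 4 grain_PHY libraries had fewer IL1RN reads per IL1B read than any other library. The log2 ratio of IL1B to IL1RN went from −4.32 ± 0.98 (SD, n = 9) on forage to −2.34 ± 1.18 (SD, n = 9) on grain, a rise of 1.98 (exact permutation test, two-sided p 0.00197, 0.0103 adjusted over 15 ratio tests).

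IL1A relative to IL1RN rose by 1.44 (exact permutation p 0.000123, adjusted 0.00185), and IL1B relative to NFKBIA by 2.10 (exact permutation p 0.00206, adjusted 0.0103). Within arms, IL1A to IL1RN was 1.35 higher on grain in control cows (exact permutation p 0.0159, adjusted 0.0477), a call that held in 1 of 10 fits without 1 library. In PHY cows it was 1.56 higher, with no overlap (exact permutation p 0.0286, the smallest that 4 against 4 can give, adjusted 0.0536). IL1B to IL1RN was 1.20 higher on grain in control cows (exact permutation p 0.127) and 2.95 higher in PHY cows without overlap (exact permutation p 0.0286, adjusted 0.0536). Ratios also moved with depth within a diet. For IL1B to IL1RN, r with log2 total reads was −0.68 over the 9 forage libraries (exact permutation p 0.0431) and −0.74 over the 9 grain ones (p 0.0243). For IL1A to IL1RN it was −0.35 on forage (exact permutation p 0.355) and −0.82 on grain (p 0.00731). For IL1B to NFKBIA it was −0.58 on forage (exact permutation p 0.0981) and −0.81 on grain (p 0.00826). Without the 3 libraries of fewest reads IL1B to IL1RN was 1.68 higher on grain (exact permutation test, adjusted p 0.0715).

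**Figure D4:**
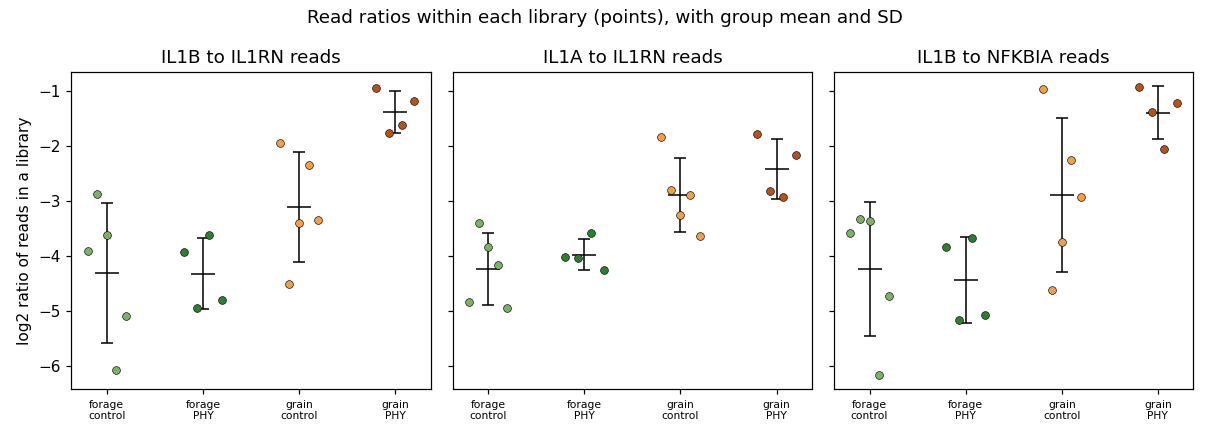
Read ratios within a library on a log2 axis (IL1B to IL1RN, IL1A to IL1RN and IL1B to NFKBIA, 0.5 added to each count) for the 4 groups; points are libraries and bars are group means with their SD. The grain_PHY points of IL1B to IL1RN lie above those of the other 3 groups, and the mean over both arms goes from −4.32 on forage to −2.34 on grain.

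Per olfactory receptor read, a scaling chosen after seeing the data, the diet difference passed the exact test for none of the 6 genes that rose: the log2 difference was 0.45 for IL1B (exact permutation p 0.33), 0.50 for CXCL8 (p 0.361), 1.22 for CSF3 (p 0.141), 0.35 for TNF (p 0.158), 0.58 for CXCL2 (p 0.238) and −0.09 for IL1A (p 0.825). On that scale NFKBIA differed by −1.65 (exact permutation p 0.00798), IL1RN differed by −1.53 (p 0.0106) and IL18 by −1.21 (p 0.013). This scaling divides all genes of a library by the same number, so it moves the 10 genes alike.

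Within each arm no gene of the study passed the diet test. In control cows edgeR called 0 of the 10 genes and 0% of all genes, with 2 of the 10 (IL1A and TNF) and 11.3% of all genes at an unadjusted p under 0.05. IL1A was 1.12 ± 0.41 (SE) higher on grain there (edgeR adjusted p 0.432), and its groups did not overlap, as for 0.491% of tested genes higher on grain; none of the 10 was without overlap downward, beside 0.86% of all. DESeq2 and limma with voom also called 0 of the 10 in control cows. The other log2 differences there were 2.001 ± 1.02 (SE) for CSF3, 1.27 ± 0.67 for CXCL2, 1.17 ± 0.57 for TNF, 1.16 ± 0.63 for CXCL8, 0.95 ± 0.47 for IL1B, 0.13 ± 0.90 for IL6, 0.00 ± 0.35 for IL18, −0.35 ± 0.26 for IL1RN and −0.38 ± 0.26 for NFKBIA. In PHY cows edgeR likewise called 0 of the 10 and 0% of all, with 7 of the 10 and 39.7% of all genes at an unadjusted p under 0.05. There IL1B was 2.19 ± 0.53 (SE) higher on grain (edgeR adjusted p 0.0696), CSF3 3.09 ± 1.17, CXCL8 2.04 ± 0.72, CXCL2 1.79 ± 0.74 and TNF 1.59 ± 0.64. IL1A was at 0.91 ± 0.45, IL6 at 0.81 ± 1.03, IL18 at −0.43 ± 0.40 and IL1RN at −0.64 ± 0.30. IL1B, CXCL2, CSF3 and TNF did not overlap between diets in PHY cows, beside 14.2% of tested genes without overlap in that direction, and NFKBIA (−0.72 ± 0.30) did not overlap downward, beside 15.8%. For PHY cows the tools differed: DESeq2 called 6 of the 10 genes (23.8% of all genes), limma with voom 4 (35.6%) and an edgeR fit of those 8 libraries alone 3 of the 8 it tested (24.0%). IL1B was called by each of these 3.

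The effect of PHY at one diet was tested next. On forage edgeR called 0 of the 10 genes and 0% of all between arms, and 0 of the 10 had an unadjusted p under 0.05 beside 1.60% of all genes. None of the 10 was without overlap there, beside 0.338% of tested genes upward and 0.216% downward. The log2 differences of PHY minus control ran from −0.98 ± 0.98 (SE) for IL6 to 0.73 ± 0.70 for CXCL2. Between them lay CSF3 at −0.21 ± 1.09, TNF at −0.17 ± 0.60, CXCL8 at −0.02 ± 0.67, IL18 at 0.01 ± 0.37, IL1RN at 0.18 ± 0.28, IL1B at 0.25 ± 0.49, NFKBIA at 0.42 ± 0.28 and IL1A at 0.55 ± 0.43. On grain again 0 of the 10 and 0% of all were called, and IL1B alone of the 10 had an unadjusted p under 0.05, beside 2.57% of all genes. IL1B averaged 2.94 ± 1.60 CPM (SD, n = 5) in grain_control and 8.14 ± 3.43 CPM (SD, n = 4) in grain_PHY, without overlap, as for 0.311% of tested genes in that direction. The difference was 1.48 ± 0.48 (SE; edgeR unadjusted p 0.00496, adjusted 0.999), with a 95% interval of 0.49 to 2.48, and IL1B ranked 28 of 22202 by p. The other differences on grain were 1.25 ± 0.69 (SE) for CXCL2, 0.88 ± 1.01 for CSF3, 0.85 ± 0.65 for CXCL8, 0.35 ± 0.43 for IL1A, 0.25 ± 0.59 for TNF, 0.08 ± 0.28 for NFKBIA, −0.11 ± 0.28 for IL1RN, −0.30 ± 0.97 for IL6 and −0.41 ± 0.38 for IL18.

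The IL1B to IL1RN ratio was 1.73 higher in grain_PHY than in grain_control (exact permutation p 0.0159, adjusted 0.0477), and it lost that call in each of the 9 fits without 1 library (adjusted p 0.0528 to 0.0669), where fewer libraries also allow fewer arrangements. On forage the same ratio differed by −0.01 (exact permutation p 0.96). Per olfactory receptor read IL1B was 1.12 higher in grain_PHY (exact permutation p 0.103). Whether the diet response of any of the 10 genes differed between the arms was tested as an interaction: edgeR called 0 of the 10 and 0% of all genes, and 0 of the 10 had an unadjusted p under 0.05 beside 1.99% of all genes. For IL1B the interaction was 1.24 ± 0.69 (SE; edgeR unadjusted p 0.0856, adjusted 0.954), with an interval of −0.19 to 2.66, so a larger response in PHY cows was not shown. The intervals of the other 9 genes also covered 0, at 1.09 ± 1.496 (SE) for CSF3, 0.88 ± 0.94 for CXCL8, 0.68 ± 1.36 for IL6, 0.51 ± 1.004 for CXCL2, 0.41 ± 0.84 for TNF, −0.21 ± 0.60 for IL1A, −0.30 ± 0.40 for IL1RN, −0.34 ± 0.40 for NFKBIA and −0.43 ± 0.53 for IL18.

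The groups fell in a common order for several genes, without clear steps between neighbours. IL1A, IL1B and CXCL2 averaged highest in grain_PHY, then grain_control, forage_PHY and forage_control. CXCL8, CSF3 and TNF had the same 2 highest groups, with forage_control above forage_PHY. IL1RN and IL18 ran the other way, from forage_PHY down to grain_PHY. NFKBIA was highest in forage_PHY and lowest in grain_control, and IL6 was highest in grain_control and lowest in forage_PHY. Among all neighbours in these orders, the IL1B values of grain_PHY and grain_control were the only ones that did not overlap.

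Across the libraries of a diet the 10 genes agreed little. Of 45 gene pairs, 26 had a Pearson r above 0 on forage and 22 on grain, with a median r of 0.11 and −0.02. None of the 90 tests passed after adjustment (smallest adjusted exact permutation p 0.314 for r and 0.118 for Spearman's rho, n = 9). By the unadjusted p of r, 9 pairs on forage and 4 on grain were under 0.05. The 4 on grain all had a negative r. They were IL1A with IL6 (−0.79), IL1RN with TNF (−0.69), TNF with NFKBIA (−0.69) and CSF3 with NFKBIA (−0.67). Those negative on forage were IL1RN with TNF (−0.74), IL1RN with CSF3 (−0.69), TNF with NFKBIA (−0.71) and IL6 with NFKBIA (−0.69). The pair of highest r on each diet was IL1RN with NFKBIA. On forage it had r 0.80 (exact permutation p 0.00674) and rho 0.92 (exact permutation p 0.00131). On grain it had r 0.65 (exact permutation p 0.0582) and rho 0.58 (p 0.108). Without the 2 libraries farthest from the median IL1RN level, r was 0.79 and 0.52. By rho on grain, IL1B with CXCL2 (0.73), CSF3 with TNF (0.70) and IL1A with IL1B (0.65) stood higher. IL6 and TNF paired on forage, with r 0.76 (exact permutation p 0.019) and rho 0.85 (p 0.00607), but had r 0.08 (p 0.851) and rho −0.02 (p 0.982) on grain; the difference was not tested. Pairs of the genes that rose with diet varied: r for IL1A with IL1B was 0.14 (forage) and 0.58 (grain), for IL1B with CXCL8 0.50 and 0.31, and for CXCL8 with CXCL2 0.21 and −0.14. For these pairs the exact permutation p of r was 0.102 or more, and rho ran from 0.05 to 0.65. IL1A with CXCL2 had r 0.69 on forage (exact permutation p 0.0424) and 0.07 on grain (p 0.88). CSF3 with TNF had r 0.68 on forage (exact permutation p 0.0453) and 0.52 on grain (p 0.153). IL1B with CXCL2 had rho 0.63 on forage (exact permutation p 0.076) and 0.73 on grain (p 0.0311).

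**Figure D5:**
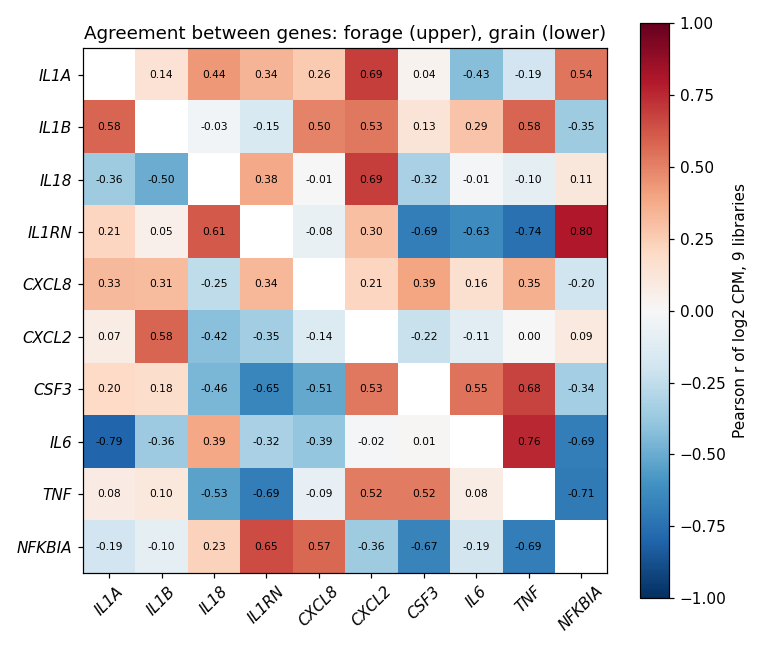
Pearson r of log2 CPM between each pair of the 10 genes over the 9 forage libraries and over the 9 grain libraries, on a colour scale from −1 to 1. IL1RN and NFKBIA form the pair of highest r, at 0.80 on forage and 0.65 on grain, and TNF is negative with both on each diet.

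Several of the 10 genes followed the make-up of the library, tested as 80 relations with exact permutation of pairings. On forage TNF followed the neutrophil markers (r 0.93, exact permutation p 0.000835, adjusted 0.0317; rho 0.92, p 0.00131; r 0.87 without the 2 farthest libraries), as did IL6 (r 0.82, adjusted exact permutation p 0.0431; rho 0.93, p 0.00075; r 0.68 without the 2 farthest). On grain neither passed: r was 0.71 for TNF (exact permutation p 0.0316, adjusted 0.101; rho 0.57, p 0.121) and 0.11 for IL6 (exact permutation p 0.778; rho −0.10, p 0.81). NFKBIA ran against those markers on forage (r −0.86, exact permutation p 0.00281; rho −0.83, p 0.00827) and grain (r −0.88, p 0.00263; rho −0.72, p 0.0369), with r −0.50 and −0.75 without the 2 farthest libraries. IL1RN ran against the olfactory receptor level on forage (r −0.89, exact permutation p 0.00124; rho −0.80, p 0.0138) and grain (r −0.86, p 0.00211; rho −0.82, p 0.0108), with r −0.56 and −0.63 without the 2 farthest libraries. On forage TNF also passed with the olfactory receptor level (r 0.85, adjusted exact permutation p 0.0329) and the epithelial markers (r −0.83, adjusted 0.0494). NFKBIA also passed with the olfactory receptor level there (r −0.88, adjusted 0.0329). IL1RN on forage also passed with total reads (r 0.77, adjusted 0.0317), neutrophil markers (r −0.81, 0.0353) and epithelial markers (r 0.84, 0.0329). On grain IL1RN also passed with the epithelial markers (r 0.88, exact permutation p 0.00301, adjusted 0.0317). In all, 1 of the 10 genes passed with total reads on grain and 2 with the epithelial markers, all with positive r. With negative r, 2 passed with the olfactory receptor level on grain and 1 with the neutrophil markers. Which of these measures a gene followed was not tested. IL1A, IL1B, IL18, CXCL8, CXCL2 and CSF3 passed with none of the 4 measures (total reads, olfactory receptor level, neutrophil markers, epithelial markers) on either diet. For CXCL8, r with the neutrophil markers was 0.18 (exact permutation p 0.628) on forage and −0.43 (p 0.249) on grain. For CSF3 it was 0.55 (exact permutation p 0.124) on forage and 0.77 (p 0.0115, adjusted 0.0511) on grain. For CXCL2 it was 0.04 (exact permutation p 0.91) on forage and 0.63 (p 0.0699, adjusted 0.164) on grain.

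Markers of neutrophils, the cells that CXCL8, CXCL2 and CSF3 act on, were measured in the same libraries. Of 20 markers 17 are in the table and 16 were tested, and 7 rose on grain and 0 fell with a median log2 difference of 1.35. Of all tested genes 18.1% rose, and of those at 1 to 2 and 2 to 4 CPM 38% and 39.8% did, so the count is not far from that of low-level genes in general. MPO, CSF3R, PGLYRP1, LTF and CAMP were among those that rose. Without S100A8, S100A9 and S100A12, which epithelium also makes, their sum was 5.68 to 27.8 CPM in forage_control, 9.09 to 12.4 CPM in forage_PHY, 15.0 to 53.3 CPM in grain_control and 20.7 to 72.1 CPM in grain_PHY. CAMP was at 0 in 5 libraries, ELANE in 3, MMP8 and CATHL2 in 1 each and CATHL4 in 13. The sum of all 17, carried by S100A12, overlapped widely and averaged lower on grain: 3098 CPM in forage_control, 3347 in forage_PHY, 2715 in grain_control and 2091 in grain_PHY. The part of neutrophil number in the cytokine levels was not tested. Of the other marker lists, 4 of 10 macrophage and monocyte, 3 of 4 mast cell, 2 of 7 T cell, 1 of 5 B cell, 1 of 3 red blood cell, 0 of 5 endothelium and 0 of 6 fibroblast and smooth muscle genes rose, beside the same 18.1% of all genes and 38% to 39.8% of those at 1 to 4 CPM. Of 13 stratified epithelium genes 0 rose and 5 fell, and of 8 rumen epithelium genes 1 rose and 3 fell. Of all tested genes 13.8% fell, and of those at 64 CPM and over 51.6% did.

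Of the 11 receptors of these ligands 2 rose and 2 fell on grain, with a median of 0.02, beside 18.1% and 13.8% of all tested genes and a median of 0.20. IL18R1, the ligand-binding chain for IL18, rose by 1.40 ± 0.41 (SE; edgeR adjusted p 0.023), and CSF3R, the CSF3 receptor of granulocytes, by 1.34 ± 0.35 (edgeR adjusted p 0.022). TNFRSF1A, the widely expressed TNF receptor, fell by 0.70 (edgeR adjusted p 0.020), and IL6ST, the signalling chain for IL6, fell by 0.63 (edgeR adjusted p 0.030). The CXCL8 receptors CXCR2 and CXCR1 missed the threshold at 1.34 and 1.19 (edgeR adjusted p 0.056 and 0.062), as did the IL1 receptor IL1R1 at −0.41 (0.073) and TNFRSF1B at −0.39 (0.058). IL1RAP (−0.36), IL18RAP (0.78) and IL6R (0.02) did not pass either.

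The wider IL1 and IL18 receptor list, with its adaptors, had 2 of 19 genes higher and 6 lower on grain and a median of −0.34, beside the same 18.1%, 13.8% and 0.20. Of all tested genes at 8 to 16 CPM 18.1% fell, and of those at 16 to 32 CPM 36.1% did. The genes of smallest p that fell carry the signal from receptor to NF-kB or restrain it: TAB1 fell by 0.61, TOLLIP by 0.58 and MYD88 by 0.53 (edgeR adjusted p 0.020, 0.022 and 0.023). Of 20 NF-kB subunits and regulators 0 rose and 4 fell, with a median of −0.28, beside 13.8% of all tested genes that fell and 36.1% of those at 16 to 32 CPM. The 4 were the subunit RELA (fell by 0.84), the inhibitor TNIP1 (log2 −0.58), the IkB-like regulator BCL3 (log2 −0.55) and the RNase ZC3H12A (log2 −0.55), all at an edgeR adjusted p of 0.020 to 0.038. In a list of prostaglandin, matrix and adhesion genes 5 of 13 rose and 0 fell, with a median of 1.16, among them OSM by 2.19 ± 0.66, SELE by 1.73 ± 0.55 and PTGS2 by 1.10 ± 0.34 (SE). That share is no higher than the 38% to 39.8% of all genes at 1 to 4 CPM that rose. Inflammasome genes had 4 of 10 tested higher (NLRP3 by 1.36 ± 0.34, GSDMA by 1.56 ± 0.35, NLRC4 by 1.47 ± 0.47 and NLRP1 by 0.73 ± 0.21) and 0 lower, with a median of 0.63, beside 18.1% of all genes that rose. Their levels spread widely, from 359 reads over the 18 libraries for NLRP6 to 5285 for NEK7. Of all tested genes 38% to 39.8% rose at 1 to 4 CPM, 18.4% at 4 to 8 CPM and 4.66% at 8 to 16 CPM. Among the other IL1 family ligands IL36B (1.62) and IL37 (1.81) rose, 2 of 7, and among other chemokines and colony-stimulating factors CXCL5 (1.13) and CCL3 (1.61), 2 of 19. In each of the other 5 contrasts edgeR called 0 genes in every one of these lists.

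The genes closest in pattern were found by Pearson r of log2 CPM, as deviation from the 4 group means over the 18 libraries, among 15083 genes at a mean of 1 CPM or more. For IL1B they were SLC13A5 and AVIL (r 0.81 each), DEPDC1B and TMEM52B (0.79 each) and MEFV (0.78). For CXCL8 they were RFC5 and TTK (0.84 each), CDCA8 (0.83), E2F8 and KNTC1 (0.82 each). NFKBIA had closer neighbours, GSTK1 (0.98), TASOR and ARFGEF1 (0.96 each), OSBPL2 and QKI (0.95 each). These values are a description, with shared depth and composition in every library.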

How the data were processed

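Total RNA of rumen papillae was made into libraries from 10 ng with a stranded total RNA kit, per the labels' protocols. The authors deposited raw read counts per Ensembl gene, and per the submitters' processing notes used bcl2fastq 2.20, the genome build bosTau9 and DESeq2 (version not given). No source used here names the aligner, the counter or its strand setting. Reads of overlapping or antisense genes may therefore be mixed. A deposited table of DESeq2-normalized signal (counts divided by 1 size factor per library) was checked against the counts and not tested.

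Counts were fitted with edgeR 4.0.16 in R 4.3.3 (TMM, filterByExpr by group, robust quasi-likelihood, 4 group means over 18 libraries), with Benjamini-Hochberg adjustment over 22202 genes and a threshold of 0.05. CPM uses TMM-scaled library sizes, except the olfactory receptor level, which uses total reads; log2 CPM had a prior count of 2. Ratios within a library and correlations were tested by exact permutation in Python with numpy 2.4.6, with ranks from scipy 1.17.1. Alternatives were DESeq2 1.42.0 (Wald test and size factors), limma 3.58.1 with voom and quality weights, no filter or at least 1 CPM in 9 libraries, thinning to the lowest total, an olfactory receptor covariate, and libraries left out. The code was tested on simulated data for the diet comparison over both arms. There edgeR called 38 of 100 genes changed 2-fold and 67 of 100 changed 4-fold, with 5 false calls. Many true changes were thus missed, and the comparisons of smaller groups were not simulated. The labels give no batch and no cow per library, so p-values treat libraries as independent.

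All 10 genes were named in every contrast whatever their test, with every receptor of the list, up to 4 called genes of smallest p from each pathway list, and the 5 most alike genes for IL1B, CXCL8 and NFKBIA. The genes, lists and markers were chosen with earlier results of these data known. Sequences and coordinates were not used here.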

Additional observations from a re-analysis of the deposited data

Results flagged for a closer look

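Outlying libraries were sought in each of 52 groups of 4 or 5 libraries (10 genes and 3 ratios in 4 groups). The gap from the highest or lowest library to its nearest neighbour was divided by the range of the group (Dixon's Q). For normally distributed values this rule picks about 1 group in 20 by chance. Whether CPM values are so distributed was not tested. There were 3 such libraries: IL1B in grain_PHY 4 at 13.3 CPM (nearest library 6.77 CPM), IL1A in grain_control 1 at 5.56 CPM (nearest 3.003 CPM) and IL6 in grain_control 4 at 2.199 CPM (nearest 0.795 CPM). All 3 are high values on grain. Without grain_PHY 4 IL1B kept its diet call, and without grain_control 1 the edgeR adjusted p of IL1A was 0.0501.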

How the results depend on the processing

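In the diet comparison over both arms, 7 of the 10 genes were called; the number was 3 with at least 1 CPM in 9 libraries (6 of the 10 tested; 30.4% of all genes called, beside 31.9%), 2 after thinning to the lowest total (7 tested; 25.5%), 0 with the olfactory receptor covariate, 0 without the 3 libraries of fewest reads, and 0 to 8 without 1 library. In PHY cows 0 were called, but 6 with DESeq2, 4 with limma voom, 3 with only the groups compared and 0 to 1 without 1 library. The other 4 contrasts gave 0 under every alternative, each library left out included. Direction turned for IL18 after thinning (0.18) and for IL1RN (0.15), NFKBIA (0.14) and IL6 (−0.40) with the covariate; the cause was not tested. Per olfactory receptor read, a scaling that lowers all genes alike on grain, IL1A stood at −0.088 and IL6 at −0.17. Without the 3 libraries of fewest reads, the log2 ratios that lost their call were IL1B to IL1RN (diet over both arms 1.68; PHY minus control on grain 2.23), IL1A to IL1RN in control cows (1.005) and IL1B to NFKBIA over both arms (1.67). Without 1 library, over both arms, IL1B to IL1RN stayed within 1.76 to 2.25, IL1A to IL1RN within 1.33 to 1.56 and IL1B to NFKBIA within 1.87 to 2.39, called in all 18 fits each. In control cows IL1A to IL1RN ranged from 1.09 to 1.56, and between arms on grain IL1B to IL1RN from 1.39 to 2.03. Between arms on forage IL1B to IL1RN ranged from −0.45 to 0.35 and IL1B to NFKBIA from −0.68 to 0.040. Adding 1 in place of 0.5 to the counts changed no call of a ratio. No paired analysis was possible because no label names the cow behind a library. With 0 to 135 reads per library for the 6 genes that rose, counting error limits each single value.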
